A study of Rattus norvegicus with 56 samples.

Results

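Pramipexole, an agonist of the D2 and D3 dopamine receptors, was compared with saline in the dorsal striatum of lesioned rats that had never received L-dopa. The comparison takes the 7 rats labelled lesion, saline and pramipexole (rats 15 to 21) and the 7 labelled lesion, saline and saline (rats 22 to 28), which are 14 of the 56 rats of the study. Each array holds the RNA of 1 rat, and no rat number occurs in more than 1 group. All 14 were male Sprague Dawley rats (Crl:OFA) that had lost nigral neurons on both sides after injection of an AAV vector. From 5 weeks after surgery all 14 were given saline in place of L-dopa for 3 weeks. The groups then differed in place conditioning: the pramipexole rats received 2 mg/kg of the drug before alternating sessions of 40 min, and the control rats received saline before every session. Tissue was taken after a 20 min test, 24 or 48 h after the last dose, and the interval of a given rat is not stated in the sources used here. The vector's promoter, the extent of each lesion and each rat's preference score are not given in the sources used here either. Because both groups carried the lesion, the comparison gives differences between lesioned rats with and without pramipexole sessions. It says nothing of the lesion itself.

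Dopamine reaches the dorsal striatum from the substantia nigra and acts on spiny projection neurons. One class carries D1 receptors, which raise cyclic AMP, and makes the peptides dynorphin and substance P. The other carries D2 receptors, which lower cyclic AMP, and makes enkephalin. Losing the nigral input is known to raise enkephalin and lower substance P in this tissue, and dopamine agonists given afterwards are known to switch on immediate early genes within hours.

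The values are log2 signals of probe sets, each a group of short probes for 1 transcript region. Of 31042 probe sets that are not array controls, 18459 had a mean above 5 over the 14 rats and were tested, and 13526 of these carry 1 gene symbol. Median signals of the 14 arrays ran from 5.62 to 5.75. Correlations between arrays ran from 0.969 to 0.986, with a median of 0.982 within groups and 0.981 between them. The tissue carried its defining genes: Drd1, the D1 receptor, had a mean of 10.81 in pramipexole rats and 10.88 in saline rats, and Penk, the enkephalin precursor, 12.29 and 12.27. Th, Slc6a3 and Drd3 lay below the filter (means of 4.04, 4.26 and 3.79). 1 rat stood apart before any comparison. Rat 22, of the saline group, had the lowest mean over 15 spiny neuron genes (-0.46, against -0.05 to 0.23 in the other saline rats). It also had the highest mean over 12 cerebral cortex genes of all 14 rats (0.73). On the cortex genes it was not set apart, with rat 20 at 0.61 and rat 27 at -0.84. Each gene was centred on its own mean. For many results on these genes the value without rat 22 is given as well.

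At a Benjamini-Hochberg adjusted p under 0.05, the threshold for a call throughout, limma called 0 probe sets higher and 0 lower (0% of those tested in each direction). The smallest adjusted p was 0.0743. At an unadjusted p under 0.05 stood 1315 probe sets (7.12%), 768 higher (4.16%) and 547 lower (2.96%) in pramipexole rats. The typical difference was small: its median size was 0.07 on the log2 scale, beside a median SE of 0.09. Only 33 probe sets differed by more than 0.5 upwards and 17 by more than 0.5 downwards, and 4 and 3 exceeded 1. Values of the 7 pramipexole rats did not overlap those of the 7 saline rats on 11 probe sets (0.0596%), 9 higher (0.0488%) and 2 lower (0.0108%). No direction below is a called change, and each gene is given by its values.

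**Figure D1:**
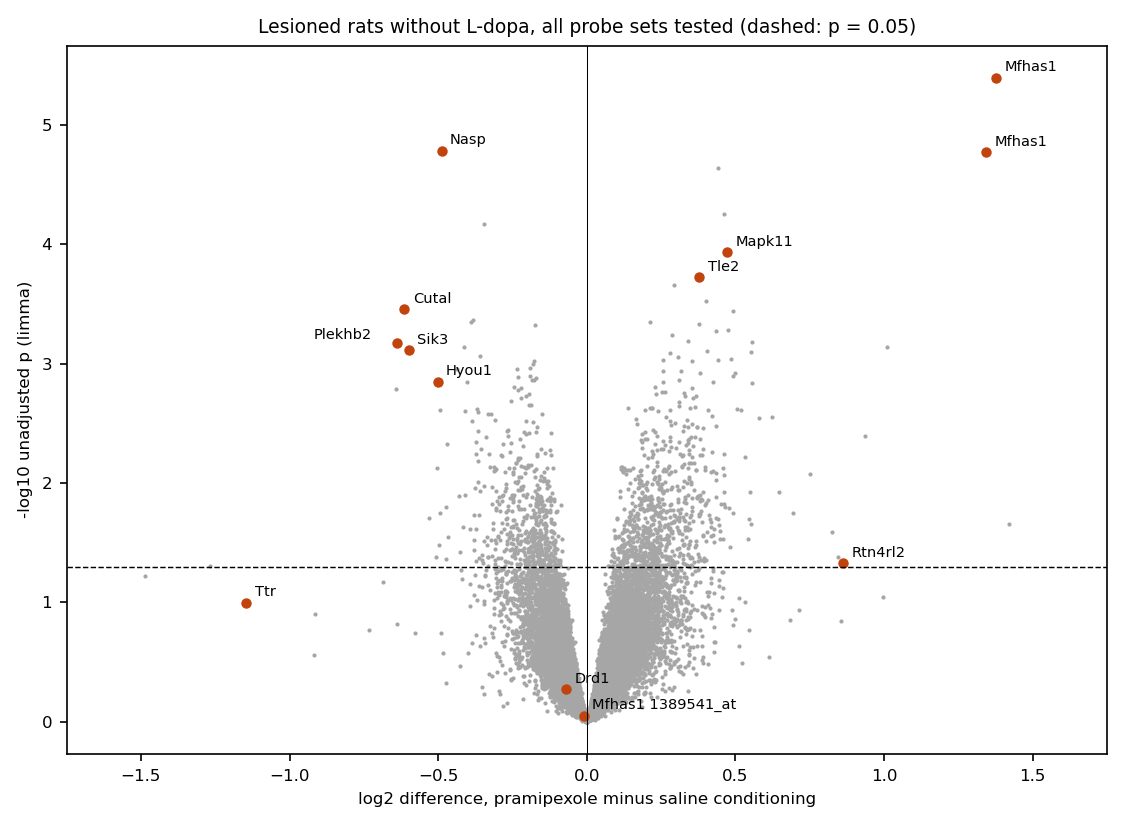
The log2 difference between pramipexole and saline conditioned rats (horizontal axis) is plotted against -log10 of limma's unadjusted p (vertical axis) for 18459 probe sets, each a grey dot. Named probe sets are orange: 2 of Mfhas1 lie at differences of 1.38 and 1.34, another of Mfhas1 at -0.01, and Nasp at -0.49.

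Mfhas1, a leucine-rich repeat protein with a GTPase domain that takes part in innate immune signalling, had the smallest p of all genes. On probe set 1398648_at the saline rats had a lowest signal of 4.83, a median of 5.19 and a highest of 6.07, and the pramipexole rats 6.24, 6.83 and 7.14. Every pramipexole rat lay above every saline rat. The difference was 1.38 ± 0.27 (SE, 7 against 7 rats), a 2.60-fold ratio, with an adjusted p of 0.0743. On probe set 1393738_s_at the saline rats ran from 5.82 through a median of 6.03 to 6.99, and the pramipexole rats from 7.18 through 7.64 to 7.93. The groups were again separate, with a difference of 1.34 ± 0.28 (2.54-fold, adjusted p = 0.104). These probe sets were designed on the same transcript record, so they are not independent measurements.

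The other Mfhas1 probe sets gave a different picture. On 1389541_at the saline rats had a lowest value of 8.35, a median of 8.52 and a highest of 8.62, and the pramipexole rats 8.35, 8.46 and 8.78. The difference there was -0.01 ± 0.06, with a 95% interval from -0.14 to 0.12, so the size seen on the first pair of probe sets lies outside it. Probe set 1384657_at was below the filter, with means of 3.53 in pramipexole rats and 3.54 in saline rats. Which part of the transcript each probe set reads was not analysed here.

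Across the 8 groups of the study, on 1398648_at and 1393738_s_at the lesioned saline rats had the lowest mean and the lesioned pramipexole rats the highest. The other probe sets had another order: the lowest mean was that of the lesioned pramipexole rats on 1389541_at (8.49) and that of the lesioned L-dopa rats without pramipexole on 1384657_at (2.80). Group means of 1398648_at were 5.38 in lesioned saline rats and 6.76 in lesioned pramipexole rats. They were 6.21 and 6.29 in lesioned rats given L-dopa, without and with pramipexole, where single rats ran from 5.21 to 6.52 and from 5.40 to 6.91. Sham rats, which had the same vector carrying GFP, averaged 6.36 and 5.90 without L-dopa and 6.06 and 5.62 with it. Single sham rats varied widely within each group. They ran from 5.86 to 7.12 and from 5.01 to 6.65 without L-dopa, and from 5.25 to 6.73 and from 4.82 to 6.31 with it. Pramipexole rats minus saline rats gave 0.08 ± 0.27 in lesioned rats with L-dopa and -0.46 ± 0.27 in sham rats without it. The difference between the lesioned and the sham contrast was 1.84 ± 0.38 (adjusted p = 0.117), and that to the L-dopa contrast 1.30 ± 0.38 (adjusted p = 0.505), and neither was called. The low signal of the lesioned saline rats and the high signal of the lesioned pramipexole rats both enter these differences.

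Whether Mfhas1 passed the threshold depended on the processing. With only the 28 lesioned arrays in the fit both probe sets were called (smallest adjusted p = 0.00839), as they were with array weights (0.022). 1 of them was called after adding 16 to the unlogged signal (0.0448) or with the choroid plexus score as a covariate (0.0497). Without rat 22 the differences were 1.49 and 1.47, both called, with adjusted p of 0.0285 and 0.0466. Some other settings raised the adjusted p. With the 3' minus 5' signal as a covariate it was 0.163 for 1398648_at and 0.26 for 1393738_s_at. Over the rats left out it reached 0.225 for 1398648_at, and 0.418 for 1393738_s_at without rat 27. Over all settings the difference of 1398648_at stayed between 1.10 and 1.49.

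**Figure D2:**
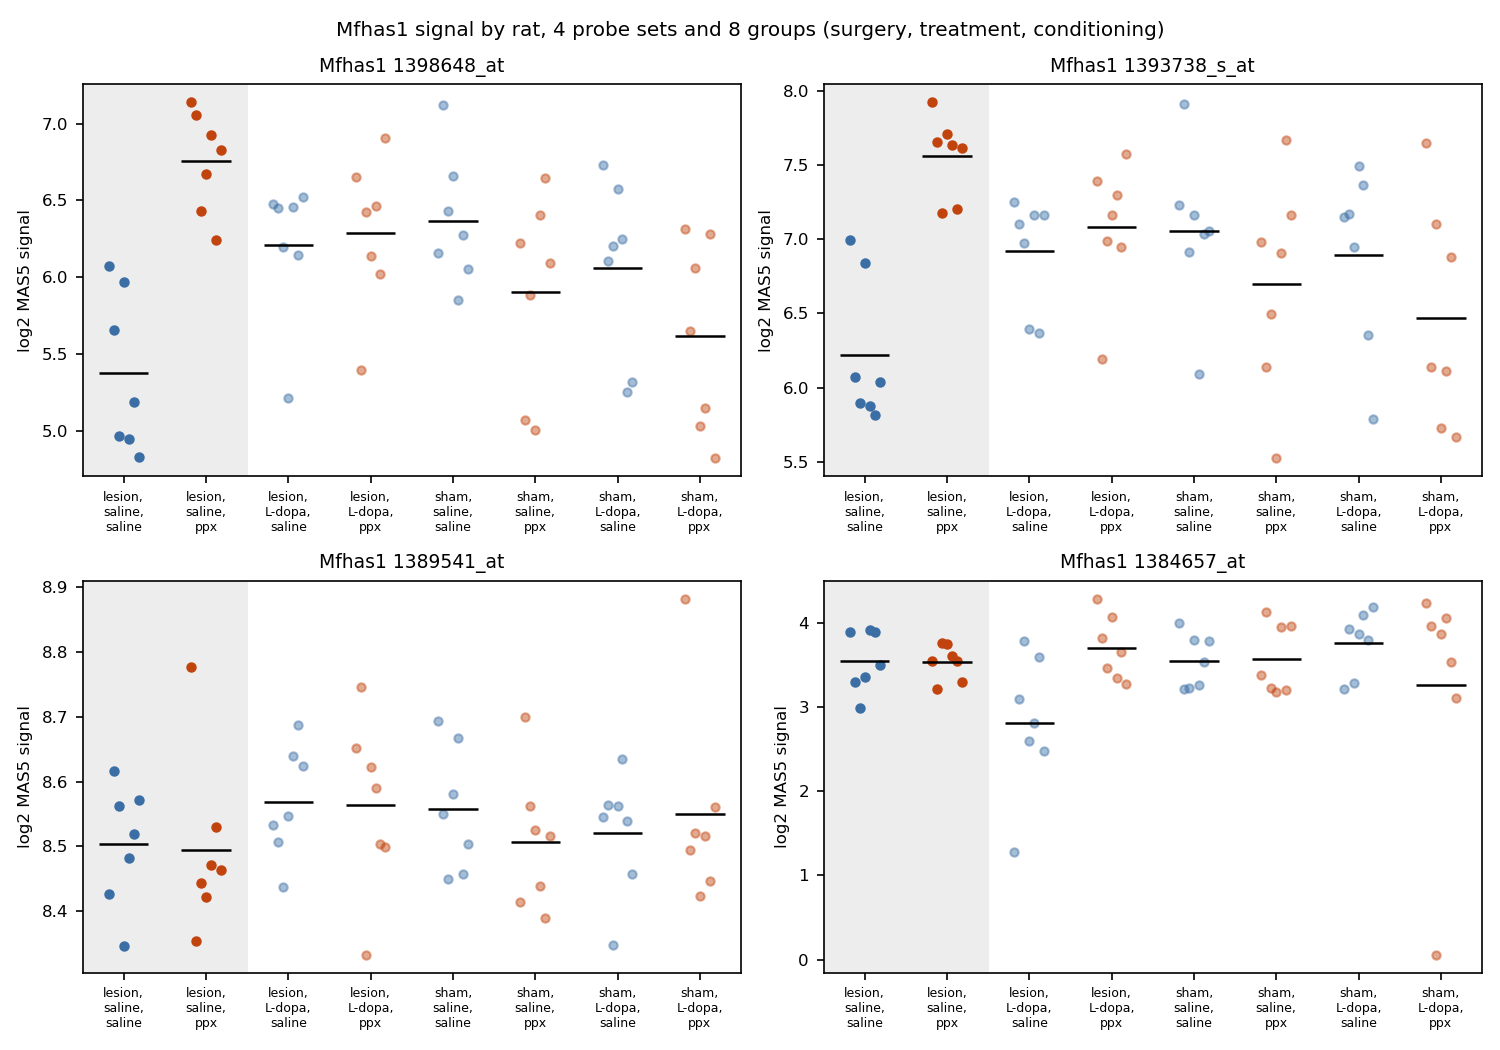
Log2 signal of Mfhas1 (vertical axes) in every rat of the 8 groups (horizontal axes; surgery, treatment, conditioning) is shown for its 4 probe sets, with pramipexole groups in orange, saline groups in blue and a line at each group mean. In the shaded groups the rats do not overlap on 1398648_at and 1393738_s_at, and they overlap on 1389541_at, where the means differ by -0.01, and on 1384657_at.

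Nasp, a histone chaperone that binds histone H1 and H3, was next by p and had lower signals in pramipexole rats. On probe set 1377299_at the saline rats had a lowest value of 6.20, a median of 6.68 and a highest of 7.07, and the pramipexole rats 5.75, 6.23 and 6.61. All 7 pramipexole rats lay below the saline mean, although the ranges overlapped. The difference was -0.49 ± 0.10 (adjusted p = 0.104). The other Nasp probe set, 1378264_at, differed by -0.07 ± 0.08. In sham rats the same contrast was 0.21 ± 0.10, and the lesioned minus the sham contrast was -0.70 ± 0.15 (adjusted p = 0.117). Nasp was called lower with the 3' minus 5' signal as a covariate (adjusted p = 0.0446), with the cerebral cortex score as one (0.0473), and without rat 16 (0.0162) or rat 27 (0.0187). It was not called in the other settings. Its adjusted p was 0.303 without rat 22 and reached 0.651 over all settings. Its difference ranged from -0.57 to -0.41 over all settings.

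Besides Mfhas1, 6 genes had non-overlapping values, all higher in pramipexole rats. They belong to the 11 probe sets without overlap, 0.0596% of the 18459 tested. With that many probe sets and 7 rats per group, some separate by chance, and whether 11 exceeds that number was not tested. Kdm2a, a histone H3 lysine demethylase, had a lowest, median and highest signal of 5.20, 5.36 and 5.73 in pramipexole rats and 4.74, 5.05 and 5.19 in saline rats. Its difference was 0.38 ± 0.11 (adjusted p = 0.478), but its other probe sets gave 0.03 and -0.01. Myo1c, an unconventional myosin that moves membrane cargo, had 6.15, 6.27 and 6.63 against 5.80, 5.97 and 6.11, a difference of 0.35 ± 0.11 (adjusted p = 0.488). Its other probe set, below the filter, gave -0.45 ± 0.59. Akap8l, a nuclear anchoring protein related to those that hold protein kinase A, had 7.70, 7.79 and 7.84 against 7.43, 7.51 and 7.61. Its difference was 0.25 ± 0.07 (adjusted p = 0.478), and its other probe sets gave 0.18 and 0.14. Lztr1, an adaptor that directs Ras proteins to ubiquitination, had a difference of 0.22 ± 0.07, with gaps of a few thousandths between its groups (highest saline rat 7.2175, lowest pramipexole rat 7.2224). The other Lztr1 probe set, below the filter, gave -0.12 ± 0.24. Deaf1, a transcription factor, had a difference of 0.18 ± 0.07, with pramipexole rats between 6.62 and 6.75 and saline rats between 6.45 and 6.60. Cbl, a ubiquitin ligase of receptor signalling, differed by 0.16 ± 0.07 on 1380069_at (adjusted p = 0.667), and by -0.03, -0.03 and 0.00 on its other probe sets. Its unadjusted p of 0.0288 lies outside the rule for naming, so it was added after its values were seen. The other non-overlapping probe sets carry no symbol: 1375800_at differed by 0.21, 1373373_at by -0.12 and 1379662_a_at by -0.18.

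Other genes with the smallest p were picked after their values were seen and are given as a description. Mapk11, the p38 beta kinase, had a difference of 0.47 ± 0.11 (adjusted p = 0.306), with medians of 7.09 in pramipexole and 6.52 in saline rats, and was called without rat 22 (adjusted p = 0.0466). Tle2, a corepressor of the Groucho family, differed by 0.38 ± 0.09 (adjusted p = 0.432), and Gga3, a clathrin adaptor of the trans-Golgi, by 0.29 ± 0.07 on 1 probe set and -0.15 ± 0.08 on the other. Hrh3, the histamine H3 receptor of striatal neurons and their inputs, had a lowest, median and highest signal of 9.18, 9.38 and 9.61 in pramipexole rats and 8.80, 9.07 and 9.26 in saline rats. Its difference was 0.29 ± 0.08 (adjusted p = 0.478), and its ranges overlapped. On the low side, Rnf6, a ubiquitin ligase, differed by -0.39 ± 0.10, Klhl4 by -0.38 ± 0.10, Sik3, a kinase of the salt-inducible family, by -0.60 ± 0.17 on 1 probe set and -0.06 ± 0.05 on the other, and Eif2a, a translation initiation factor, by -0.17 ± 0.05. Plekhb2 differed by -0.64 ± 0.18 on 1 probe set and 0.06 ± 0.08 on the other. Each of these 5 had an adjusted p of 0.478.

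Drd2, Drd1 and Adora2a, receptor genes of spiny neurons, were close to level, while Drd3 lay below the filter and was not tested. Drd2, a receptor that pramipexole binds, had a lowest, median and highest signal of 9.36, 9.65 and 10.02 in pramipexole rats and 8.99, 9.67 and 10.09 in saline rats. The ranges overlapped, and the difference was -0.07 ± 0.13 (95% interval -0.32 to 0.18). Drd1 had 10.51, 10.83 and 11.06 against 10.25, 10.98 and 11.10, a difference of -0.07 ± 0.11 (-0.29 to 0.15), and the lowest saline value was that of rat 22. Without rat 22 the differences were -0.19 ± 0.12 for Drd2 and -0.17 ± 0.10 for Drd1, neither called. With the cortex score as a covariate both turned to the other side of 0, at 0.07 and 0.04. Adora2a, the adenosine receptor of D2 neurons, differed by -0.04 ± 0.12, and by -0.16 ± 0.11 without rat 22.

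Penk and Pdyn, which encode opioid peptides, were also close to level. Penk had a lowest, median and highest signal of 12.21, 12.27 and 12.48 in pramipexole rats and 12.02, 12.32 and 12.48 in saline rats. Its difference of 0.02 ± 0.07 had a 95% interval of -0.12 to 0.17, and without rat 22 it was -0.02 ± 0.07. Pdyn, the dynorphin precursor, differed by -0.00 ± 0.13 (medians 9.99 and 10.07), or -0.09 ± 0.13 without rat 22. Tac1, the substance P precursor, differed by -0.19 ± 0.16, and by -0.31 ± 0.15 without rat 22. Nts, neurotensin, had a lowest, median and highest signal of 6.69, 7.31 and 7.71 in pramipexole rats and 6.92, 7.80 and 8.29 in saline rats. Its difference of -0.43 ± 0.20 was the only one of 15 tested peptide and opioid receptor genes with an unadjusted p under 0.05 (adjusted p = 0.683), and it was -0.55 ± 0.20 without rat 22.

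By list, the spiny neuron genes leaned slightly low. Over all probe sets tested, 53.3% lay above 0 and the median difference was 0.008. Of 9 tested genes of D1 neurons 3 lay above 0 (median -0.02), of 5 of D2 neurons 1 (median -0.07), and of 15 shared by both classes 5 (median -0.05). Without rat 22 these medians were -0.13, -0.16 and -0.11. With the cortex score as a covariate they were 0.04, 0.07 and 0.02, so their side of 0 depends on that score. None of these genes had an unadjusted p under 0.05. In bulk tissue, fewer cells of a type and less RNA per cell cannot be told apart.

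Downstream of the receptors, 10 of 24 tested genes of dopamine signalling lay above 0 (median -0.02). Prkaca, the catalytic subunit of protein kinase A, was the single one with an unadjusted p under 0.05, at -0.31 ± 0.14 (medians 6.56 in pramipexole and 6.99 in saline rats, adjusted p = 0.667). Ppp1r1b, the DARPP-32 phosphoprotein that integrates dopamine signals, differed by -0.01 ± 0.10, Adcy5, the striatal adenylyl cyclase, by -0.06 ± 0.08, and Rgs9, which shortens signals of D2 receptors, by 0.03 ± 0.11. Among genes of the Ras and MAP kinase pathway, Map2k2, a kinase that activates ERK, differed by 0.16 ± 0.07 and Rap1a, a Ras-like GTPase, by -0.13 ± 0.06, and 7 of 15 lay above 0. Cnr1, the CB1 cannabinoid receptor of spiny neurons, differed by -0.28 ± 0.12, with 7 of 7 pramipexole rats below the saline mean, and Mgll, which degrades the endocannabinoid 2-arachidonoylglycerol, by 0.20 ± 0.11. None was called.

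Immediate early genes, which mark recent neuronal activity, had mostly higher means in pramipexole rats. Of 19 tested, 16 lay above 0, with a median of 0.18, but none had an unadjusted p under 0.05. Fos had the largest difference, 0.49 ± 0.34 (named for its size after the values were seen). Nr4a1, an orphan nuclear receptor, had a lowest, median and highest signal of 6.75, 7.26 and 7.78 in pramipexole rats and 6.41, 6.88 and 7.40 in saline rats. It differed by 0.34 ± 0.20, with overlapping ranges. Dusp1, a phosphatase of MAP kinases, differed by 0.30 ± 0.20, Arc, a synaptic protein made from dendritic RNA, by 0.26 ± 0.26, and Fosb by 0.13 ± 0.15. Homer1 differed by -0.06 ± 0.08 on 1368318_at, its probe set of highest mean. Of its 5 probe sets 2 were higher and 3 lower, from -0.15 ± 0.09 on 1370656_a_at to 0.34 ± 0.35 on 1370997_at. Leaving out each rat in turn left the list's median between 0.10 and 0.22.

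In sham rats under the same drug 16 of the 19 genes also lay above 0, with a median of 0.26, and in lesioned rats with L-dopa 12, with a median of 0.00. The sham value was above the lesioned one for 13 of the 19. It was 0.81 ± 0.20 for Nr4a1, 0.76 ± 0.26 for Arc, 0.55 ± 0.15 for Fosb, 0.32 ± 0.20 for Dusp1 and -0.02 ± 0.08 for Homer1 on 1368318_at, none of them called. The lesioned minus the sham contrast was -0.47 ± 0.29 for Nr4a1 (adjusted p = 0.807), -0.50 ± 0.37 for Arc (0.858) and -0.43 ± 0.22 for Fosb (0.748), so a difference between lesioned and sham rats was not detected for these genes.

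Markers of cerebral cortex also had higher means in pramipexole rats. All 12 tested lay above 0, with a median of 0.25, while Tbr1 and Emx1, which define cortical excitatory neurons, lay below the filter (means 1.67 and 4.50). Neurod2, a transcription factor of cortical projection neurons, differed by 0.43 ± 0.24 (0.58 ± 0.24 without rat 22), and Slc17a7, their vesicular glutamate transporter, by 0.30 ± 0.29. Rtn4rl2, a Nogo receptor homolog, differed by 0.86 ± 0.42, but 1 saline rat, rat 27, had a signal of 1.18 where the others had at least 4.07, and without it the difference was 0.30 ± 0.34. Without rat 22 it was 1.11 ± 0.43. The mean score over the list varied widely within each group, from -0.59 to 0.61 in pramipexole rats and from -0.84 to 0.73 in saline rats. Without rat 22 the list's median was 0.35. With the cortex score as a covariate the immediate early genes had a median of 0.14, with 15 of 19 above 0. The part of cortical tissue in the other results was not tested beyond the values given with this covariate.

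Synaptic vesicle genes also leaned high: 14 of 19 lay above 0, with a median of 0.07, and 3 had an unadjusted p under 0.05. Syn1, a phosphoprotein that tethers vesicles, had a lowest, median and highest signal of 7.14, 7.69 and 8.00 in pramipexole rats and 6.95, 7.24 and 7.79 in saline rats, and differed by 0.30 ± 0.13. Cplx2, a complexin that controls fusion, differed by 0.18 ± 0.08, and Pclo, a scaffold of the active zone, by 0.26 ± 0.12. With the cortex score as a covariate the median was 0.02, with 12 of 19 above 0. At the postsynaptic side, 19 of 28 genes lay above 0 (median 0.05). Shank1, a scaffold of spines, differed by 0.37 ± 0.18 and Dlg2, which anchors NMDA receptors, by -0.25 ± 0.12. The other Shank1 probe sets, below the filter, gave -0.12 ± 0.29 and -0.05 ± 0.21. Gphn, gephyrin of inhibitory synapses, differed by -0.17 ± 0.07.

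Genes of oligodendrocytes, the myelinating glia, leaned low. Of 14 tested, 3 lay above 0, with a median of -0.12, and 4 had an unadjusted p under 0.05. Ugt8, which makes the myelin lipid galactosylceramide, had a lowest, median and highest signal of 7.44, 8.10 and 8.45 in pramipexole rats and 8.00, 8.31 and 8.72 in saline rats, and differed by -0.30 ± 0.12 (adjusted p = 0.622). The other Ugt8 probe set, below the filter, gave 0.68 ± 0.87. Ermn, a late myelin cytoskeletal protein, differed by -0.27 ± 0.11, Olig1, a lineage transcription factor, by -0.20 ± 0.10, and Mag, an adhesion protein of myelin, by -0.20 ± 0.10. The abundant myelin genes were level, with Mbp at 0.07 ± 0.07 and Mobp at 0.03 ± 0.08. The list's score was lowest in 2 pramipexole rats (-0.33 and -0.21) and overlapped between groups. Without rat 22 the median was -0.12. With the cortex score as a covariate it was -0.08, and 0 of the 14 then had an unadjusted p under 0.05.

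Several chaperones of the endoplasmic reticulum had lower means in pramipexole rats. Of 23 genes of protein folding stress and heat shock, 6 lay above 0 (median -0.04), and 3 had an unadjusted p under 0.05. Hyou1, an Hsp70-like chaperone of the endoplasmic reticulum, had a lowest, median and highest signal of 4.66, 5.32 and 5.56 in pramipexole rats and 5.41, 5.67 and 5.80 in saline rats. Its difference was -0.50 ± 0.15 (adjusted p = 0.478), with 7 of 7 pramipexole rats below the saline mean, at a signal near the filter. Hspa5, the main chaperone of that compartment, had 10.62, 10.84 and 11.05 against 10.82, 11.16 and 11.33, and differed by -0.28 ± 0.11 (adjusted p = 0.614). Canx, calnexin, differed by -0.10 ± 0.04. Calr, calreticulin, which acts beside calnexin, went the other way at 0.22 ± 0.14, and Atf4, a stress transcription factor, was at 0.11 ± 0.06. In lesioned rats with L-dopa the contrast was -0.02 ± 0.15 for Hyou1 and 0.01 ± 0.11 for Hspa5, and in sham rats -0.27 ± 0.15 and -0.17 ± 0.11.

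**Figure D3:**
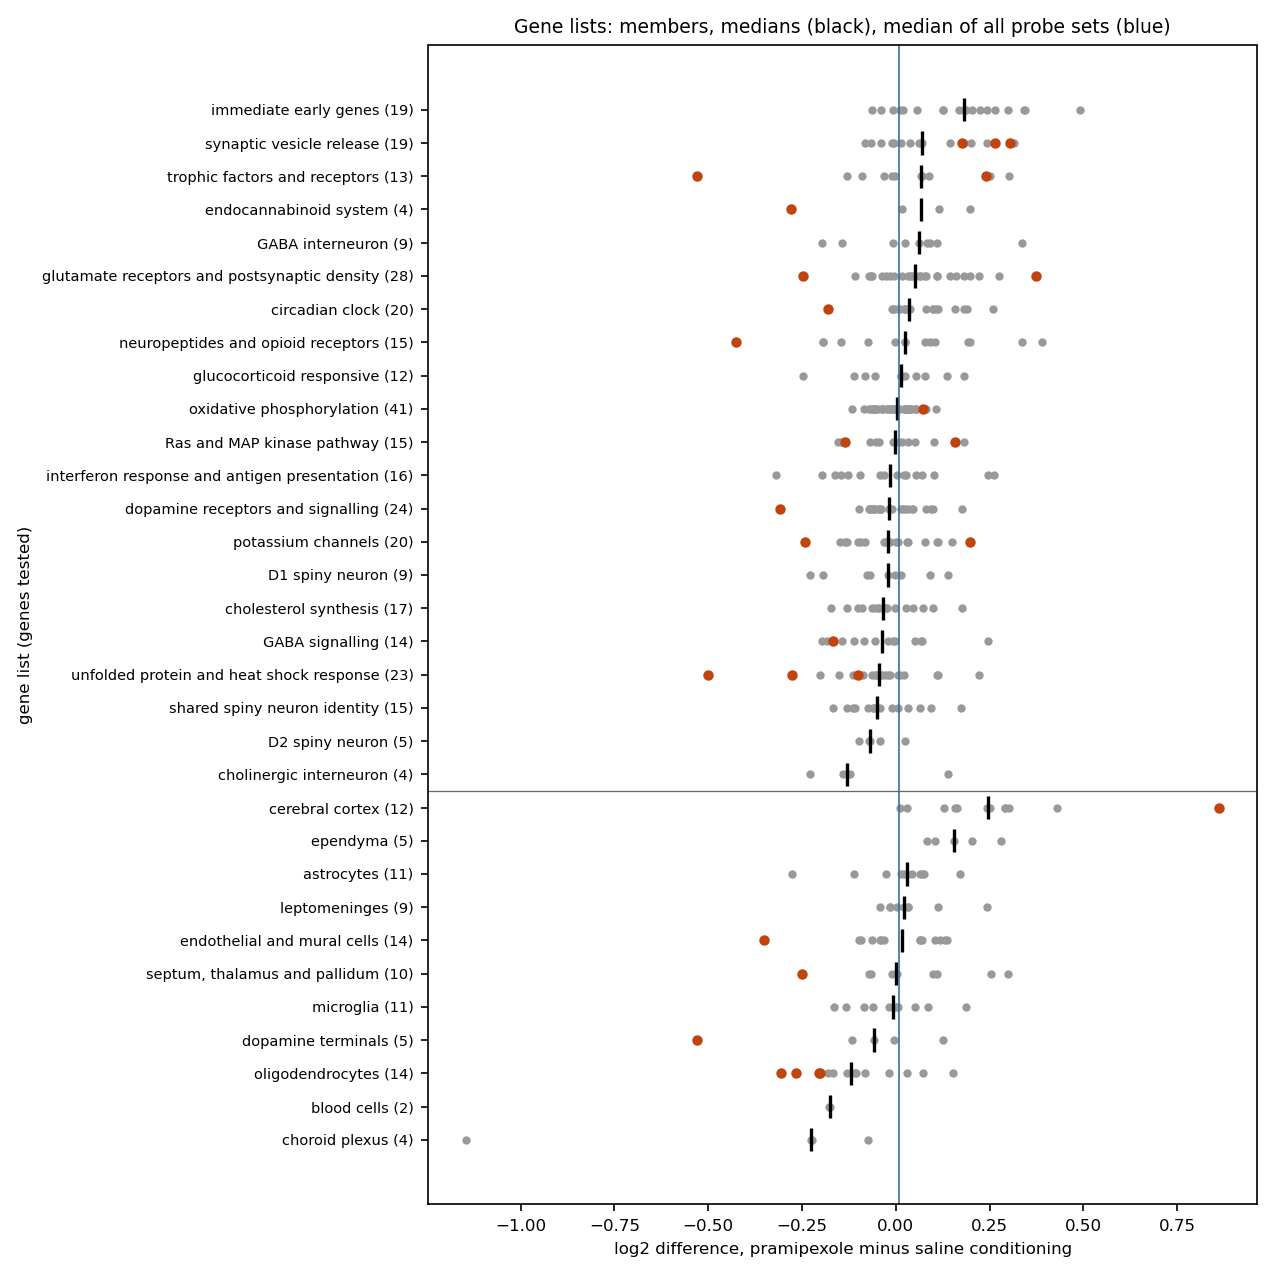
Each dot is the log2 difference between pramipexole and saline conditioned rats (horizontal axis) of 1 gene of the named list (vertical axis; number of genes tested in brackets), orange where the unadjusted p was under 0.05 and grey otherwise. Black bars mark list medians, from 0.25 for cerebral cortex and 0.18 for immediate early genes to -0.12 for oligodendrocytes and -0.23 for choroid plexus, and the blue line is the median of all probe sets, 0.008.

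Receptors for trophic factors of dopamine neurons had differences on opposite sides of 0. Ret, the signalling receptor for GDNF family factors, had a lowest, median and highest signal of 4.45, 4.96 and 5.75 in pramipexole rats and 5.24, 5.49 and 6.07 in saline rats. It differed by -0.53 ± 0.22 (adjusted p = 0.634), with 6 of 7 pramipexole rats below the saline mean. Its other probe sets, below the filter, gave 0.85 ± 0.64 and -0.50 ± 0.58. Gfra1, the co-receptor that binds GDNF, had 6.30, 6.50 and 6.89 against 6.12, 6.38 and 6.46, and differed by 0.24 ± 0.09 (adjusted p = 0.605), while its other probe set gave -0.02. In lesioned rats with L-dopa the contrasts were 0.34 ± 0.22 for Ret and -0.14 ± 0.09 for Gfra1. In sham rats they were -0.57 ± 0.22 and -0.04 ± 0.09.

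The lists of interneurons, microglia and astrocytes had no member with an unadjusted p under 0.05. Of 4 tested genes of cholinergic interneurons 1 lay above 0 (median -0.13, or -0.22 without rat 22), and of 9 of GABA interneurons 6 (median 0.06, or 0.04 without rat 22). Chat, the acetylcholine-synthesising enzyme of cholinergic interneurons, had medians of 6.21 in pramipexole and 6.58 in saline rats, and differed by -0.14 ± 0.16, or -0.23 ± 0.16 without rat 22. Of 11 microglial genes 5 lay above 0 (median -0.01), and of 11 astrocyte genes 8 (median 0.03). Gfap, the intermediate filament of reactive astrocytes, differed by -0.28 ± 0.22. Of the genes of oxidative phosphorylation 21 of 41 lay above 0 (median 0.00), and of those of the interferon response 8 of 16. In the circadian clock, 16 of 20 lay above 0 (median 0.04), or 13 of 20 without rat 22, and Bmal1, its positive arm, differed by -0.18 ± 0.08. Ttr, transthyretin of the choroid plexus, ranged from 4.10 to 10.88 in saline rats and from 4.73 to 7.46 in pramipexole rats, a difference of -1.15 ± 0.68. Over all 32 lists, 413 different genes were tested, 0 were called, and the smallest adjusted p was 0.478. Of these genes 9 (2.18%) had an unadjusted p under 0.05 on the high side and 18 (4.36%) on the low side, beside 4.16% and 2.96% of all probe sets tested.

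RNA quality leaned between the groups. The 3' minus 5' signal of the array's actin and GAPDH controls, which grows as RNA degrades, was 0.961 ± 0.077 in pramipexole rats and 0.870 ± 0.101 in saline rats (SD, n = 7 each). The difference of 0.091 had a p of 0.0775 in a two-sided exact permutation test over 3432 assignments. By the same test actin alone gave 0.140 (exact permutation p = 0.0571) and GAPDH alone 0.042 (exact permutation p = 0.253). Without rat 18 the joint difference was 0.114 (exact permutation p = 0.0204), and without rat 23 it was 0.109 (exact permutation p = 0.042). Leaving out any other rat did not bring the p under 0.05. With this signal as a covariate 921 probe sets had an unadjusted p under 0.05, against 1315 without it, the immediate early genes had a median of 0.15 and the cortex genes one of 0.17. The differences of the Mfhas1 probe sets were then 1.25 ± 0.27 and 1.19 ± 0.28, and that of Nasp -0.54 ± 0.10. With it Drd1 was at 0.01 and Pdyn at 0.08, on the other side of 0 from the values above.

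**Figure D4:**
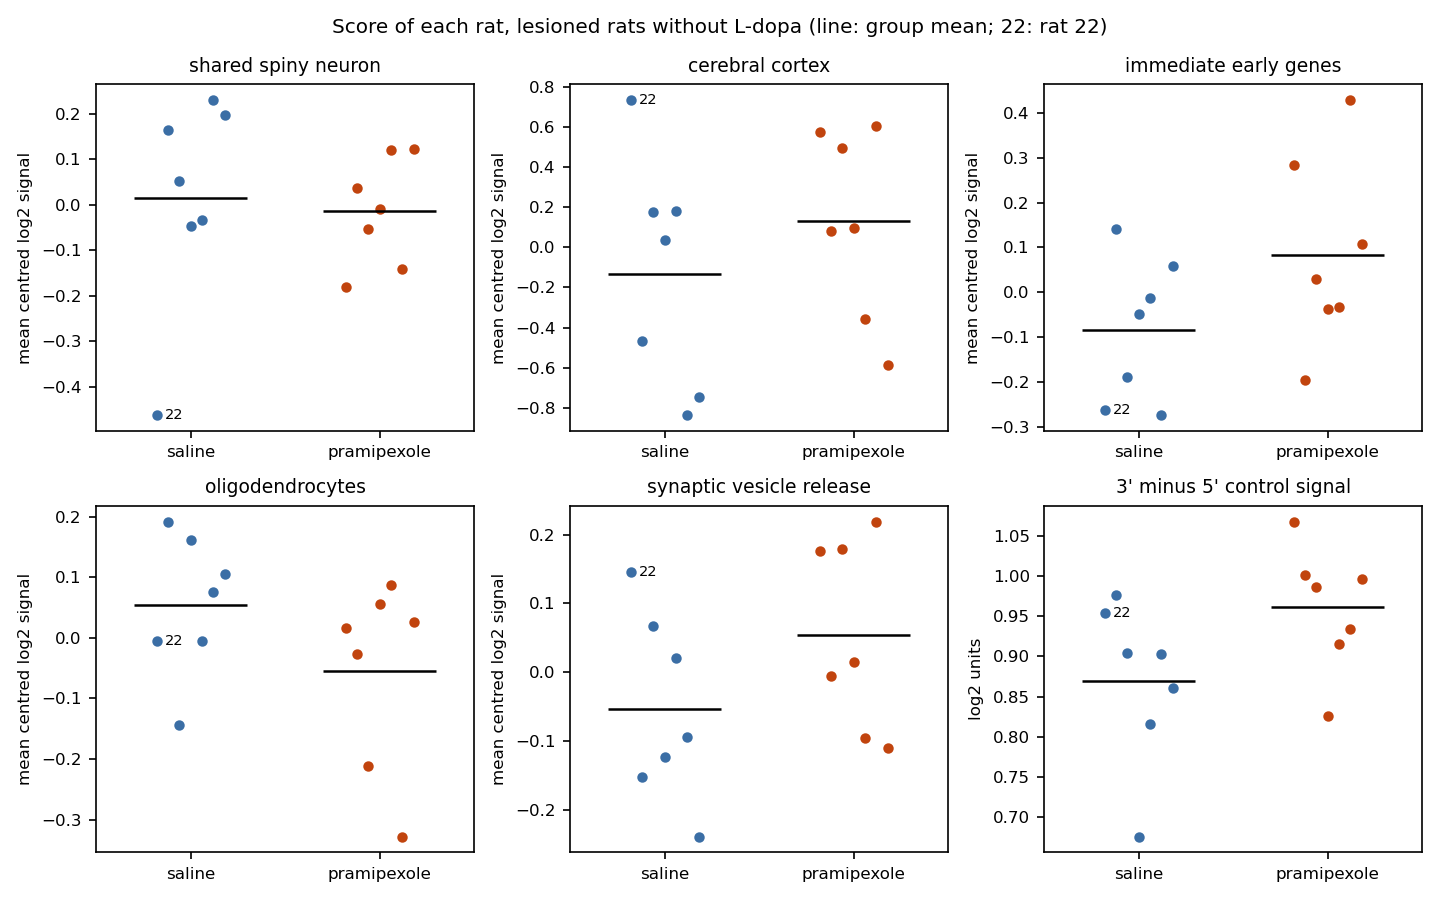
Each point is 1 rat, by conditioning (horizontal axis), for 5 gene list scores (mean log2 signal, each gene centred on its mean over the 14 rats) and the 3' minus 5' control signal (log2 units), with a line at the group mean. Rat 22, marked, has the lowest shared spiny neuron score (-0.46) and the highest cerebral cortex score (0.73), and in each panel the groups overlap.

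The pattern was compared with 2 of the 3 other pramipexole contrasts, none of which shares a rat with it; the contrast in sham rats with L-dopa was not used here. Across the 18459 probe sets the correlation of differences, a description over genes measured on the same arrays, was -0.087 with the contrast in lesioned rats given L-dopa and 0.063 with that in sham rats. Of the 1315 probe sets with an unadjusted p under 0.05, 47.4% had the same sign with L-dopa and 54.2% in sham rats, beside 48.6% and 50.5% over all tested. The contrast with L-dopa had 0 probe sets called higher and 3 lower (0.0163%), and the sham contrast had 0 called in each direction. For the difference between contrasts, 0 probe sets were called against either (0%), with 1295 (7.02%) and 1244 (6.74%) at an unadjusted p under 0.05.

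The smallest p for the gap to the L-dopa contrast was that of 1392177_at, which carries no symbol and was added after its values were seen (gap 0.63 ± 0.13, adjusted p = 0.328). Among genes with a symbol, none called, Peli2, a ubiquitin ligase of innate immune signalling, differed by -0.26 ± 0.09 without L-dopa and 0.29 ± 0.09 with it, a gap of -0.54 ± 0.12 (adjusted p = 0.408). Rnd3 gave 0.32 ± 0.09 and -0.21 ± 0.09, a gap of 0.53 ± 0.13, and all 3 of its probe sets were higher in pramipexole rats without L-dopa. Snrnp200, a helicase of the spliceosome, gave 0.24 ± 0.11 and -0.37 ± 0.11. Arhgap24, which switches off Rac, gave -0.18 ± 0.10 and 0.41 ± 0.10, and the non-coding Lnc215 gave 0.19 ± 0.08 and -0.25 ± 0.08. The last 4 had an adjusted p of 0.485 or 0.49 for the gap. Against sham rats, Pbrm1, a chromatin remodelling subunit, differed by -0.19 ± 0.09 in lesioned and 0.38 ± 0.09 in sham rats (gap -0.57 ± 0.12, adjusted p = 0.176). Bpnt2, a Golgi phosphatase of sulfation, gave -0.36 ± 0.10 and 0.26 ± 0.10, and Cpeb4, which controls translation of polyadenylated RNA, -0.17 ± 0.06 and 0.17 ± 0.06 (adjusted p = 0.248 for each gap). Other probe sets of these genes gave smaller differences in lesioned rats: -0.20 ± 0.08 on 1398652_at, -0.04 ± 0.14 on 1395036_at and -0.00 ± 0.06 on 1373367_at for Bpnt2, and -0.00 ± 0.05 on 1372223_at for Cpeb4. All 6 Pbrm1 probe sets were lower in lesioned pramipexole rats. The value above is from 1395100_at, and the others ran from -0.09 ± 0.06 on 1379645_at to -0.04 ± 0.09 on 1395306_at.

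**Figure D5:**
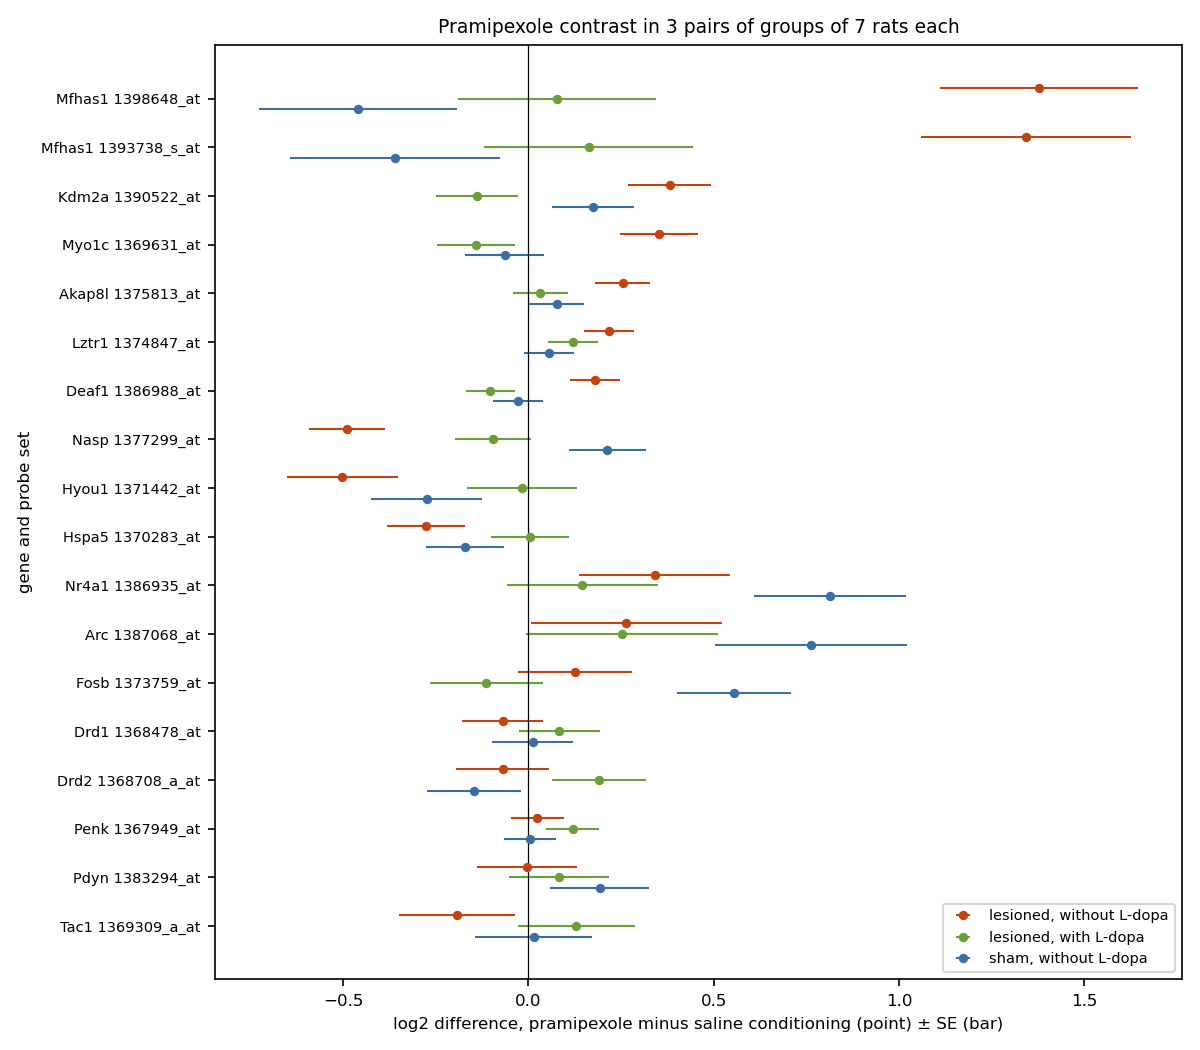
Points are log2 differences between pramipexole and saline conditioned rats (horizontal axis), with bars of 1 SE, for 18 probe sets (vertical axis) in lesioned rats without L-dopa (orange), lesioned rats with L-dopa (green) and sham rats without L-dopa (blue). Mfhas1 lies at 1.38, 0.08 and -0.46 on 1398648_at, Nr4a1 at 0.34, 0.15 and 0.81, and Drd1 at -0.07, 0.08 and 0.01.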

How the data were processed

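Total RNA of each rat's dorsal striatum was labelled from 100 ng with a 3' kit and hybridised to Affymetrix Rat230_2 arrays, per the labels' protocols. The deposited values are log2 signals made with MAS5, per the submitters' processing notes; its version is not given in the sources used here. After unlogging, all arrays share a trimmed mean of 150.0 (2% off each end), which is a scaling by the authors. They were used as deposited. There were no detection calls, and precision is limited by how many arrays each group has.

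Groups follow the labels. One linear model over 56 arrays and 8 groups was fitted with limma 3.58.1 (R 4.3.3), two-sided, with intervals on its 48 residual degrees of freedom and Benjamini-Hochberg adjustment over the 18459 probe sets that are not controls and average above 5 over the 14 rats. The fit was tested on simulated data. Symbols came from the platform annotation: 13526 of these probe sets carry 1 symbol, 309 several and 4624 none, and 99.7% of the single symbols matched the rat gene table by gene number. A list's gene is represented by its probe set of highest mean. Of 561 different list genes, 64 have no probe set of their own and 84 fall below the filter.

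Named are non-overlapping genes with an unadjusted p under 0.01, a fixed set of striatal genes (1 of them is not reported here), up to 3 members of smallest p per list, and the 5 with a symbol of smallest p in each difference between contrasts. Members and lists were chosen with earlier results of these data known. No promoter motif was examined, since no gene was called. Alternatives were other array sets, filters, normalization, an added constant, variance priors, array weights, covariates and leaving out each rat.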

Additional observations from a re-analysis of the deposited data

Results flagged for a closer look

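Within groups of 7 rats, 27 of 346 groups examined (7.8%) held a rat whose gap to the next exceeded 0.568 of the group's range, and chance gives about 1 in 20 (Dixon's criterion). 9 of the 27 concern rat 22 of the saline group. It was lowest for Drd1 (10.25), Adora2a (9.41), Chat (5.94), Isl1, a factor of D1 and cholinergic neurons (5.14), and Per1, a clock gene (6.39), and highest for the complement gene C1qc (7.02). It was also lowest on the scores of shared spiny neuron genes (-0.463), dopamine signalling (-0.189) and cholinergic interneurons (-0.473), lists that share some genes.

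Among the other saline rats, rat 26 was low for Sik3 (4.89) and 1376320_at (7.22), rat 25 for Snrnp200 (8.11), rat 27 for Rtn4rl2 (1.18), rat 28 for Cpeb4 (9.01), rat 23 for the glucocorticoid receptor Nr3c1 (8.93), and rat 24 for Gfap (9.03) and the GABA receptor subunit Gabrg1 (6.30). Among the pramipexole rats, rat 15 was high for Pagr1 (7.53), Irf1 (6.19) and Mfhas1 on 1389541_at (8.78) and low for Cpeb4 (8.87). Rat 20 was low for the water channel Aqp4 (11.38), Tmem212 (6.09) and Arhgap24 (5.39), rat 19 was low for Eif2a (7.81), and rat 21 was high for Pdyn (10.48) and the sterol enzyme Lss (7.76).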

How the results depend on the processing

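No paired analysis was possible because rat numbers are not shared between the groups. The count called higher, 0, became 2 with only the 28 lesioned arrays, 2 with array weights, 1 with 16 added to the unlogged signal and 1 with the choroid plexus score as a covariate, each time Mfhas1. The count called lower, 0, became 1 (Nasp) with the 3' minus 5' signal or the cerebral cortex score as a covariate, and the count lower in the difference to sham rats, 0, became 1 (Nasp) with the 3' minus 5' signal. Leaving out each rat gave 0 to 3 called higher, 0 to 1 called lower and 0 to 1 called lower in the difference to sham rats. The 3 called higher without rat 22 were Mapk11 and both Mfhas1 probe sets; without rat 19 they were Tle2 and 1392177_at, without rat 23 Nusap1 and 1 Mfhas1 probe set, without rat 25 1 Mfhas1 probe set. The call was 1376320_at without rat 26, Nasp without rats 16 or 27, and 1393686_at for the sham difference without rat 21. The cause was not tested. The 3' minus 5' difference ranged from 0.0586 to 0.114 over the rats left out.

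Signs turned for differences near 0. With the cortex score as a covariate Nr4a2 was -0.058, Gpr6 0.043, Drd1 0.038, Drd2 0.068, Adora2a 0.067 and Pdyn 0.095. With the 3' minus 5' signal Gpr6 was 0.014, Drd1 0.015 and Pdyn 0.077, and with the choroid plexus score Pdyn was 0.031. Quantile normalization gave Penk -0.019 and Pdyn 0.0075. Over the rats left out, Adora2a ran from -0.163 to 0.0143, Lum from -0.105 to 0.0151, Mfhas1 on 1389541_at from -0.0562 to 0.0142, Nr4a2 from -0.0147 to 0.267, Pdyn from -0.0908 to 0.0695 and Penk from -0.0181 to 0.0586. Of the other values for single genes, 3761 kept their sign and side of the threshold and 22 passed it, in 150 results.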

Other observations

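Potassium channel genes stand in no comparison above. Of 20 tested, 1 had an unadjusted p under 0.05 in limma on the high side and 1 on the low side. Over all probe sets tested the shares were 4.16% and 2.96%. Kcnk2, a two-pore potassium channel, had a lowest, median and highest signal of 9.25, 9.71 and 9.82 in pramipexole rats and 9.53, 9.95 and 10.11 in saline rats, and differed by -0.24 ± 0.09 (limma, adjusted p = 0.612). The other Kcnk2 probe set, below the filter, gave 0.90 ± 0.49. Kcnab2, a subunit of voltage-gated potassium channels, differed by 0.20 ± 0.09. Of 20 tested potassium channel genes 9 lay above 0, with a median of -0.02. Outside neurons, Flt1, a VEGF receptor of endothelium, differed by -0.35 ± 0.17, and of 14 endothelial and mural genes 7 lay above 0. The other Flt1 probe sets, below the filter, gave -0.42 ± 0.21 and 0.29 ± 0.22. Of 5 ependymal genes 5 lay above 0 (median 0.16, or 0.06 without rat 22), led by Cfap126 at 0.28 ± 0.18. None was called.

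The spread between rats was alike in both groups, with a median SD over probe sets of 0.158 among pramipexole rats and 0.167 among saline rats, and 43.9% of probe sets had the larger SD under pramipexole. Probe set 1392177_at, which carries no symbol, had values of 6.72, 7.06 and 7.44 (lowest, median, highest) in pramipexole rats and 6.48, 6.62 and 6.78 in saline rats, a difference of 0.44 ± 0.09 (adjusted p = 0.105), and probe set 1384340_a_at differed by 0.46 ± 0.10 (adjusted p = 0.207).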
